A study of Mus musculus with 2 samples.

Results

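The RIKEN-4933 series is a group of mouse genes that still carry the name of the cDNA clone they were first seen in. The symbols come from the RIKEN full-length cDNA project, and this prefix marks clones of adult testis libraries. Many of these loci were later annotated as long noncoding RNAs, others as proteins that have not been given a descriptive name. The members described here were chosen from measured values: every symbol made of that prefix, 3 digits, a letter, 2 digits and Rik that reached a level of at least 10 CPM, counts per 1000000 counts, in at least 1 wild-type stage from early pachytene to elongated spermatids. That gave 76 members of 121 such symbols, in a gene table of 31053 genes of which 10372 passed the same rule. Because the wild-type levels chose the members, their wild-type stages are given below as a description without a test.

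The levels are single-cell RNA-seq counts of unique molecular identifiers (UMIs) from germ cells of adult C57BL/6 mouse testis, sorted as tetraploid cells and captured with a 10x Chromium kit for 3′ ends. One library came from wild-type tissue and 1 from tissue labelled Zfp541-/-, with the allele not described; Zfp541 encodes a zinc finger factor found in spermatocytes. The labels name the source both as whole testis and as tetraploid cells, and the authors' annotation holds haploid stages too. Each genotype had 1 library, so no difference below has a replicate check, and every interval is an exact 95% interval that covers counting error only. The wild-type library held 8420 annotated cells and 108612781 UMIs, and the library labelled Zfp541-/- held 8833 cells and 119675250 UMIs, with 17 cell barcodes present in both. The authors' stage names were used: Diff.Spg1 to Diff.Spg3 for differentiated spermatogonia, pre.L, L and Z for preleptotene, leptotene and zygotene, eP, mP and lP for early, mid and late pachytene, D for diplotene, MI for the first meiotic division, RS.1 to RS.3 for round spermatids and ES for elongated spermatids. In the wild-type library, 111 cells (ES) to 2344 cells (MI) stood for each stage from eP to ES. The library labelled Zfp541-/- held 1164 eP, 2501 mP and 1945 lP cells but 13 D cells and none later, so the genotypes are compared in pachytene. Median depth per cell was lower in the wild type, at 7945 against 18665 UMIs in mP and 9210 against 23690 in lP. Zfp541 itself read 28.1 CPM in wild-type mP and 81.9 CPM in mP of the library labelled Zfp541-/-. A 3′ tag outside the deleted part would be counted in a knockout as well, so these values check nothing about the label.

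Spermatogenesis places transcription in waves. Pachytene spermatocytes, which have paired and are recombining their chromosomes, start a large programme that includes many long noncoding RNAs and many genes first needed in sperm. Round spermatids run a further haploid programme before the chromatin is compacted and transcription stops in elongating cells. Long noncoding RNAs are known for high tissue specificity, and the testis expresses more of them than other organs do. CPM here is summed over the cells of a stage. A 3′ kit counts transcript ends, so the values are not divided by transcript length.

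GENCODE vM21 annotates 34 members as lincRNA (a long noncoding RNA between genes), 16 as antisense RNA and 26 as protein coding. Among all genes that passed the rule, 7.40% were lincRNA, 4.81% antisense and 87.6% protein coding. The rule kept 26 of 30 protein-coding symbols of the series, 16 of 25 antisense and 34 of 66 lincRNA symbols. For 12 of the 76 members the exonic sequence is 1 unbroken block, with no intron in the annotation. The members lie on 19 chromosomes, with 13 (17.1%) on chromosome 7, where 7.80% of all genes of the rule lie, and 3 (3.95%) on chromosome X, where 1.58% of all genes of the rule lie. No member is on chromosome Y. Of all 121 symbols of the series, with or without the level, 12.4% lie on chromosome 7 and 4.13% on chromosome X. The 3 X-linked members, 4933428M09Rik, 4933400A11Rik and 4933436I01Rik, all had their highest level in RS.2 or RS.3, after the stage in which the X chromosome is silenced in spermatocytes.

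Some members have partly known roles. 4933416C03Rik is named Taf7l2 in RefSeq, a relative of the transcription initiation factor gene Taf7. 4933415F23Rik is named Ppp1r14bl there, a relative of the phosphatase 1 inhibitor gene Ppp1r14b, and both are annotated with a single block and no intron. Reads from near-identical copies could be split between such genes and their parents. 4933408B17Rik is named Brd8dc, 4933425L06Rik Nt5el and 4933406M09Rik Mgat4f. 4933434E20Rik is the mouse ortholog of a human gene of unknown function that many tissues express, and 4933427D14Rik is the mouse ortholog of a human centriolar satellite gene. For the lincRNA and antisense members no function is stated here.

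RefSeq promoter windows, from 250 bases before to 50 bases after the annotated start, were found for 55 of 76 members in build GRCm38.p6, 5 of them under a newer symbol. Each was searched on both strands for 3 motifs: TGACGTCA, the cAMP response element, which round spermatid activators of the CREM family bind; GTTGCC, the core of the X-box of RFX factors; and TAACNG, which MYB factors such as the pachytene regulator MYBL1 bind. TAACNG was in 15 of 55 windows (27.3%), against 23.3% of all 32851 RefSeq windows and 22.1% of the 10023 windows of genes that passed the level rule. GTTGCC was in 15 of 55 (27.3%), against 12.5% and 14.6%. TGACGTCA was in 1 of 55 (1.82%), against 1.79% and 3.36%. A match is a stretch of letters, not a measured binding site. None of the 3 motifs overlaps another in the windows printed here.

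The following 5 windows belong to members described next, with motif letters on either strand in capitals. The windows with TAACNG shown here are all those of the members with 2 or more matches to it. The shares of all windows beside them are thus a description and no test. 4933440M02Rik, a lincRNA highest in mP, had 5 matches to TAACNG between 72 and 10 bases before its start (chr7:125349737-125350036, minus strand). The last 2 of these overlap on opposite strands, and 5 or more were in 8 of 32851 windows (0.0244%). 4933414I15Rik, protein coding and highest in lP, had 3 matches, of which the first 2 overlap on opposite strands (chr11:50943676-50943975, minus strand), and 3 or more were in 0.508% of all windows. 4933400L20Rik, a lincRNA highest in MI, had 2 (chr8:103603549-103603848, plus strand), and 2 or more were in 3.91%. 4933404O12Rik, a lincRNA highest in lP, had 2 matches to GTTGCC, both read on the other strand as GGCAAC (chr5:136918896-136919195, plus strand), and 2 or more were in 1.02%. 4933415F23Rik, highest in MI, held none of the 3 motifs (chr1:23102204-23102503, minus strand).
4933440M02Rik: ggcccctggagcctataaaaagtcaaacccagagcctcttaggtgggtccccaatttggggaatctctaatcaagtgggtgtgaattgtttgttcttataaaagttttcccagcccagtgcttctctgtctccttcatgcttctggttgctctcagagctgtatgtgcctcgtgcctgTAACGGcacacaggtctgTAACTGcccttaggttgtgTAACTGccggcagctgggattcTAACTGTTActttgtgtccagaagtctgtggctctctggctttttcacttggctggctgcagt
4933414I15Rik: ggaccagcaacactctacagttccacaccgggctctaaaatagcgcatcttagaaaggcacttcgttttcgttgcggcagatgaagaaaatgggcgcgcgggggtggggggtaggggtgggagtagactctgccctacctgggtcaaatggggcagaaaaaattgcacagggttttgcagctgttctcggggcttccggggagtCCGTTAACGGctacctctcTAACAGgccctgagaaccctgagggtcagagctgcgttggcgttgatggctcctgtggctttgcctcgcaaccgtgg
4933400L20Rik: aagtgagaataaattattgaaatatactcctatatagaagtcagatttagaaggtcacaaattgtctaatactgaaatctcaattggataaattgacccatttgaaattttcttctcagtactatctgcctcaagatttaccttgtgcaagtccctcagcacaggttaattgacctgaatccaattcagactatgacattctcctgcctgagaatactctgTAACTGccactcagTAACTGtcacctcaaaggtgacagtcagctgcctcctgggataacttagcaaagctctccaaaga
4933404O12Rik: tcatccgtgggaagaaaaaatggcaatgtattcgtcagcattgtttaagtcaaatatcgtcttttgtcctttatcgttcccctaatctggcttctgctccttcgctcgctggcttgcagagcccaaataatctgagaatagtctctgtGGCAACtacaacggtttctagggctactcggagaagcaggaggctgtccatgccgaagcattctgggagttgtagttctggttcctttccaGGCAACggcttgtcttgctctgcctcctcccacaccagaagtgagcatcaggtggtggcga
4933415F23Rik: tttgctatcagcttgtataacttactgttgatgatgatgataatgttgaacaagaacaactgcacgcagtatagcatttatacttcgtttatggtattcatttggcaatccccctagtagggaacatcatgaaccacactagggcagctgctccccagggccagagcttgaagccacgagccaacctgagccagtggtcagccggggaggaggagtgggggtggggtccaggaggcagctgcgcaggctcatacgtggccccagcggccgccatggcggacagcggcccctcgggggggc

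By wild-type stage of peak, 9 members (11.8%) were highest in pachytene, 16 (21.1%) in D or MI and 51 (67.1%) in spermatids. The single stages held 3 members in eP, 2 in mP, 4 in lP, 3 in D, 13 in MI, 2 in RS.1, 17 in RS.2, 26 in RS.3 and 6 in ES. Over all 10372 genes of the rule, 48.1% peaked in pachytene, 15.6% in D or MI and 36.3% in spermatids. For other testis clone series the shares in the same order, with no test of the difference, were 6.13%, 19.0% and 74.8% of 326 genes of the RIKEN-1700 series, and 6.98%, 24.8% and 68.2% of 258 genes of the RIKEN-4930 series. Of 4 further such prefixes, which had 1 to 20 genes each, those with more than 1 gene had 6 of 11, 10 of 17 and 15 of 20 genes highest in spermatids. The share of lincRNAs among the members and among all genes differs, and over all 768 lincRNAs of the rule 12.9% peaked in pachytene, 24.3% in D or MI and 62.8% in spermatids. Among protein-coding genes the shares were 65.4% in spermatids for the 26 members and 32.4% for all 9084 genes. Of 16 antisense members 0 peaked in pachytene, against 8.82% of all 499 antisense genes of the rule.

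**Figure D1:**
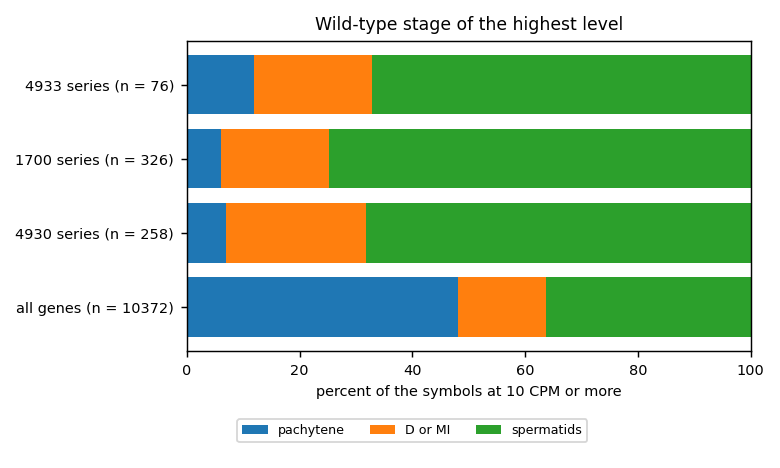
Bars show the percent of symbols whose highest wild-type level lay in pachytene (eP, mP, lP), in D or MI, or in spermatids (RS.1, RS.2, RS.3, ES), for 76 members of the RIKEN-4933 series, 326 of the RIKEN-1700 series, 258 of the RIKEN-4930 series and all 10372 genes of the rule. The spermatid share is 67.1% for the members and 36.3% for all genes.

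How sharply a gene is limited to few stages was measured with tau, which is 0 for equal levels in the 9 stages and 1 for a gene in a single stage. The median tau was 0.777 over the members, with quartiles of 0.578 and 0.876, against 0.657 over all genes of the rule, 0.817 in the RIKEN-1700 series and 0.827 in the RIKEN-4930 series. The antisense members had a median of 0.816 and the lincRNA and protein-coding members 0.745 each. In 30 of 76 members the peak stage and the next highest stage differed by less than the counting interval of their ratio, so their single stage of peak is uncertain. Such a tie can also cross the classes, as for 4933406F09Rik between MI and RS.1 and for 4933414I15Rik between lP and D. 21 members reached at least 100 CPM in some stage. The members nearest the limit were 4933404I11Rik at 11.1 CPM, 4933409D19Rik at 12.2 CPM and 4933413J09Rik at 12.2 CPM inside it, and 4933407E24Rik at 9.56 CPM, 4933427J07Rik at 9.56 CPM and 4933440J02Rik at 9.39 CPM outside it.

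**Figure D2:**
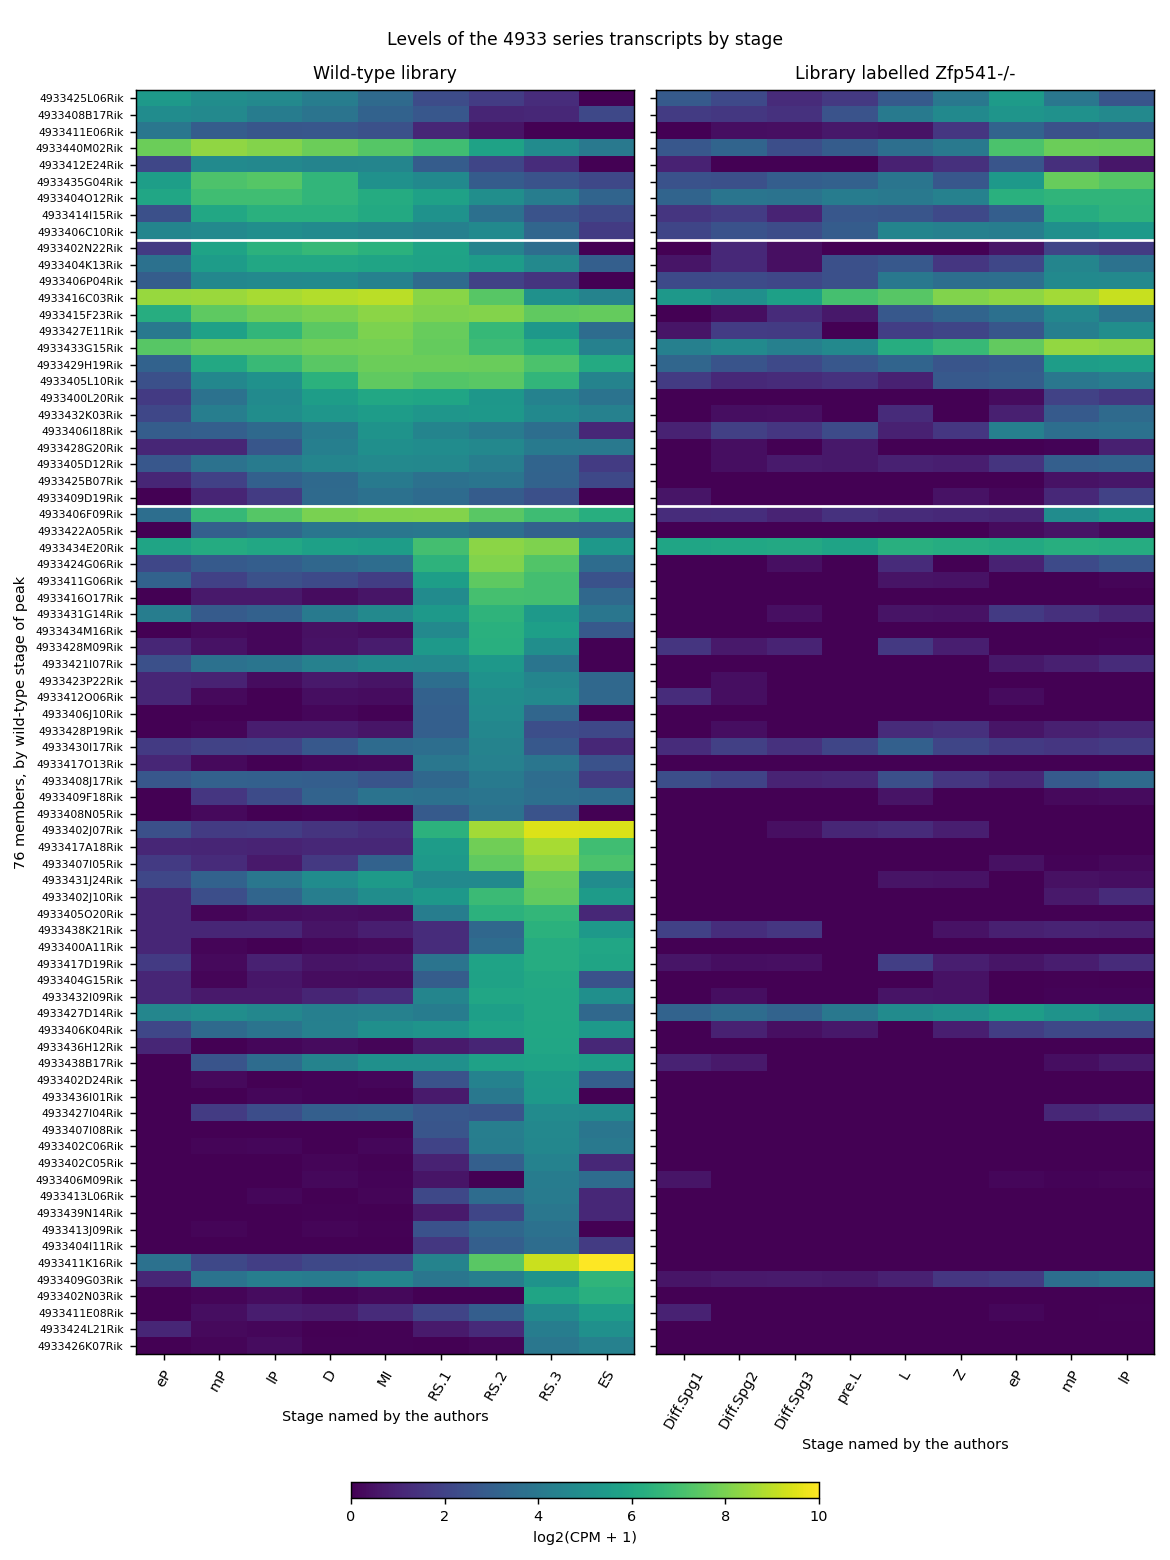
Each row is 1 of the 76 members, ordered by the wild-type stage of its peak, each column a stage, and the colour is log2(CPM + 1). White lines separate members that peak in pachytene, in D or MI and in spermatids. The left panel is the wild-type library from eP to ES and the right panel the library labelled Zfp541-/- from Diff.Spg1 to lP. Most rows of the lowest block are dark in pachytene of both libraries, and 23 of its 51 members had 0 UMIs in pachytene on the right.

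Among the 9 members highest in pachytene, the lincRNA 4933440M02Rik had the highest level. It read 216 CPM in eP, 324 CPM (313 to 336) in mP, 282 CPM in lP, 215 CPM in D and 165 CPM in MI, and then 121, 52.8, 27.6 and 15.3 CPM from RS.1 to ES. Its level was thus highest in mP and lower at each later stage. 4933435G04Rik, a lincRNA without introns, read 47.8 CPM in eP, 147 CPM in mP, 164 CPM (155 to 173) in lP and 95.6 CPM in D, and was at 32.6 CPM or below from MI on. 4933404O12Rik, a lincRNA, read 60.04 CPM in eP, 121 CPM in mP and 122 CPM in lP, which did not differ beyond counting error between mP and lP.

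4933414I15Rik, a protein-coding member, went from 4.45 CPM in eP to 62.5 CPM in mP, 81.5 CPM (75.3 to 88.0) in lP and 80.3 CPM in D. It is the member of this class with the steepest entry, 4.03 on the log2 scale from eP to lP (2.83 to 6.08). The interval of its lP level holds its D level, and its class of peak changed in cells thinned to 3000 UMIs. 4933412E24Rik, protein coding and without introns, read 3.34 CPM in eP and 26.5 CPM in mP, stayed between 21.6 and 24.4 CPM from lP to MI, and read 6.53 CPM in RS.1. 4933406C10Rik, a lincRNA with 10 exonic blocks, was flatter, with 22.2 to 30.1 CPM from eP to MI.

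The 3 members highest in eP were low throughout. 4933425L06Rik (Nt5el) read 40.0 CPM (28.0 to 55.4) in eP, from 36 UMIs, and 25.3 CPM in lP. 4933408B17Rik (Brd8dc) read 27.8 CPM and 4933411E06Rik 14.5 CPM, from 25 and 13 UMIs. The eP stage had 230 wild-type cells with a median of 3275 UMIs, the shallowest of the 9 stages, and the order of eP and mP was within counting error for the first 2 of these members.

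Several members highest in D or MI read higher at each stage from eP on. 4933416C03Rik (Taf7l2) read 351 CPM in eP, 362 in mP, 410 in lP, 463 in D and 504 CPM (497 to 512) in MI, then 296 CPM in RS.1, 166 in RS.2 and 32.3 in RS.3. Its level was high in every meiotic stage and dropped only in round spermatids. 4933415F23Rik (Ppp1r14bl) read 74.5 CPM in eP, 183 in mP, 228 in lP, 253 in D and 305 CPM (299.6 to 311) in MI, and stayed between 188 and 280 CPM from RS.1 to ES. It had the lowest tau of all 76 members, 0.316.

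4933427E11Rik, an antisense RNA, had a narrower profile, with 15.6 CPM in eP, 94.2 in lP, 263 CPM (257 to 268) in MI and 39.3 in RS.3. 4933433G15Rik, a lincRNA, read 170.1 CPM in eP and 236 CPM (231 to 242) in MI, with 233 CPM in D. 4933402N22Rik, a protein-coding member, read 2.22 CPM in eP, 54.4 in mP, 84.8 in lP, 102 CPM (98.3 to 105) in D, 82.3 in MI, 55.1 in RS.1 and 0 in ES. The other 2 members highest in D were the lincRNAs 4933404K13Rik at 63.1 CPM and 4933406P04Rik at 26.7 CPM. The remaining 9 members highest in MI ranged from 12.2 CPM for 4933409D19Rik to 217 CPM for 4933429H19Rik.

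**Figure D3:**
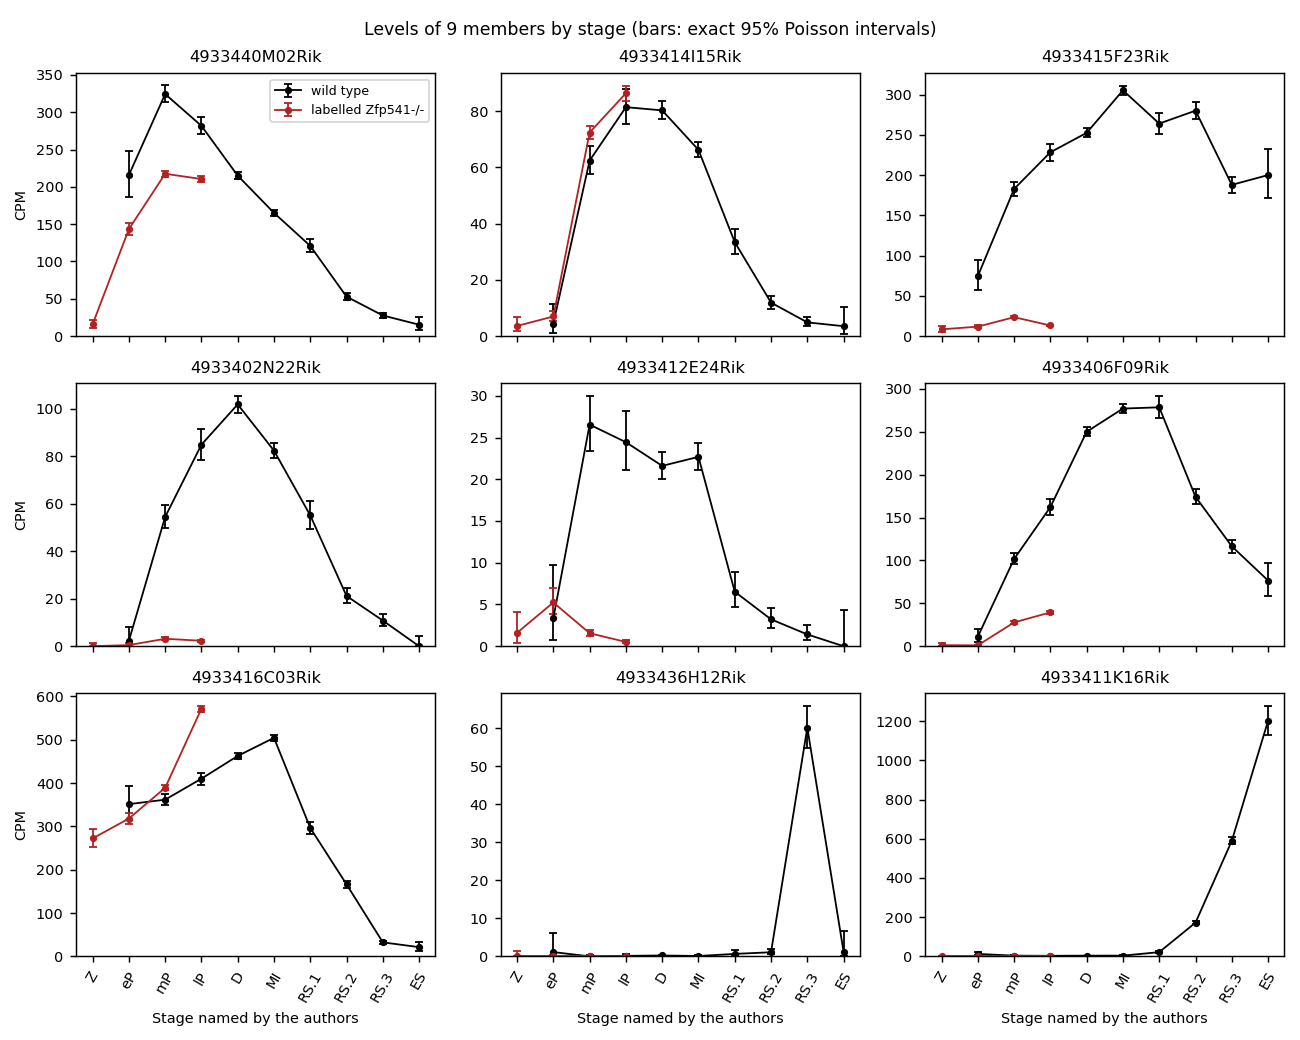
Levels in CPM of 9 members by stage, from Z to ES for the library labelled Zfp541-/- (red, Z to lP) and from eP to ES for the wild type (black), with exact 95% Poisson intervals as bars. The vertical axis of each panel starts at 0 and has its own scale. 4933414I15Rik overlaps between the libraries in lP, 4933415F23Rik, 4933402N22Rik and 4933412E24Rik are low in red, and 4933436H12Rik has its wild-type level in RS.3.

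Of the 51 members highest in spermatids, 49 peaked after RS.1. Summed over these 51 members, the wild-type level was 175 CPM in eP, 304 in mP, 388 in lP, 529.6 in D, 637 in MI, 1256 in RS.1, 3249 in RS.2, 4588 in RS.3 and 3073 CPM in ES. 4933411K16Rik, a protein-coding member without introns, reached the highest level of the series. It read 21.3 CPM in RS.1, 172 in RS.2, 589 in RS.3 and 1202 CPM (1129 to 1278) in ES, and 2.63 to 12.2 CPM from eP to MI. Its level in CPM was thus higher at each step from RS.1 on. CPM is a share of all UMIs, and the median total per cell was 19631 UMIs in RS.3 and 6480 in ES. A higher CPM in ES therefore need not mean more UMIs per cell, here or for other members that peak in ES.

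4933402J07Rik, protein coding, read 84.7 CPM in RS.1, 393 in RS.2, 719 CPM (699.9 to 738) in RS.3 and 692 CPM (637 to 750.5) in ES, and the last 2 did not differ beyond counting error. 4933417A18Rik, also protein coding, read 45.4, 225 and 417 CPM in RS.1, RS.2 and RS.3 and 120.1 CPM in ES. The lincRNA 4933407I05Rik read 40.6, 185, 327 and 142 CPM in the same stages. 4933431J24Rik, a lincRNA, had a profile in 2 parts: 42.3 CPM in MI, 26.0 in RS.1, 26.1 in RS.2, 210.1 CPM in RS.3 and 28.3 in ES.

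The highest of the 17 members that peak in RS.2 were 4933434E20Rik and 4933424G06Rik, both protein coding. 4933434E20Rik read 46.2 to 69.8 CPM from eP to MI, 127 in RS.1, 305 CPM (294 to 316) in RS.2, 269.9 in RS.3 and 38.9 in ES, so it was present in every stage and higher in round spermatids. 4933424G06Rik read 9.12 CPM in D, 87.4 in RS.1, 274 CPM (264 to 285) in RS.2 and 154 in RS.3. Among these 17, the lincRNAs 4933411G06Rik and 4933416O17Rik followed at 185 and 132 CPM in RS.2, against 2.50 and 0.471 CPM in MI.

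The 2 members highest in RS.1, the lincRNAs 4933406F09Rik and 4933422A05Rik, were already plain in pachytene or the meiotic divisions. 4933406F09Rik read 11.1 CPM in eP, 102 in mP, 162 in lP, 249.96 in D, 277 in MI, 278 CPM (266 to 292) in RS.1 and 174 in RS.2, a plateau across the meiotic divisions in which MI and RS.1 did not differ beyond counting error. 4933422A05Rik was lower with a like course, from 7.20 CPM in mP to 15.0 CPM in RS.1. Of the 6 members that peak in ES, 4933411K16Rik was followed by 4933409G03Rik at 91.8 CPM (72.6 to 115), 4933402N03Rik at 77.7 CPM (60.1 to 98.9) and the lincRNA 4933411E08Rik at 44.7 CPM (31.7 to 61.4). 4933402N03Rik was at 0 CPM in RS.1 and RS.2 and at 56.2 CPM in RS.3.

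The narrowest member, picked out after its values were seen, was the lincRNA 4933436H12Rik with a tau of 0.991. It read 0.637 CPM in RS.1, 1.07 in RS.2, 60.2 CPM (54.8 to 65.9) in RS.3 and 1.18 in ES, from 4, 10, 468 and 1 UMIs. RS.3 is a single cluster of 393 cells in 1 library.

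Transcripts used as spermatid markers were also counted outside spermatids. In the wild-type library 7 markers of elongating spermatids summed to 807 CPM in eP, 285 in mP, 223 in lP and 182 in MI, with all 7 detected, against 335972 CPM in ES. In the library labelled Zfp541-/- they summed to 1.37 CPM in mP, with 4 of 7 at 0, and to 1.30 CPM in lP, with 3 of 7 at 0. Per 1000 marker UMIs, 4933411K16Rik had 15.2 UMIs in eP, 12.3 in mP, 11.8 in lP, 17.1 in D and 19.7 in MI. In spermatids it had 38.0 in RS.1, 122 in RS.2, 8.42 in RS.3 and 3.58 in ES. 4933406F09Rik had 13.8 in eP, 357 in mP, 726 in lP and 1520 in MI, and 4933431J24Rik 4.13, 27.5, 66.2 and 232. From eP to MI the ratio to the markers thus ran from 11.8 to 19.7 for the first of these members, from 13.8 to 1520 for the second and from 4.13 to 232 for the third. Whether the marker counts in these stages came from spermatids was not tested, nor was the part of spermatid RNA in the members' pachytene levels. Marker lists of Sertoli, Leydig, endothelial, macrophage and red cells summed to 2.38 CPM or less and that of peritubular myoid cells to 5.04 CPM or less in mP and lP of both libraries.

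In pachytene, 27 members reached 10 CPM in the higher library in mP and 30 in lP. The genotypes are compared as a log2 ratio, the Zfp541-/- label over the wild type, after adding 0.5 counts to each sum, and a member is called lower or higher when the levels differ at least 2-fold. In mP 11 of 27 members were called lower, against 10.6% of the 7701 genes at that level, and 0 were called higher, against 15.0%. In lP 15 of 30 were called lower, against 14.3% of 7635 genes, and 0 higher, against 17.4%. Over genes that also pass the wild-type rule, as the members must, the shares called lower were 11.2% in mP and 15.1% in lP and the shares called higher 10.8% and 13.4%. The median log2 ratio of the members was -0.58 in mP and -0.95 in lP, where all genes had medians of 0.15 and 0.11. With the minimum set on the mean of the libraries the members' medians were -0.43 and -0.42, and with 20 CPM the lP median was -0.62.

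The level minimum shapes these counts. In lP, 18 of the 30 members were at 10 CPM or more in both libraries, and 5 of these 18 were called lower, against 7.99% of all genes of the rule in the same position. Another 10 were at that level in the wild type only, and all 10 were called lower, against 79.6% of all genes of the rule, a position that the minimum itself favours. In mP, 5 of 19 members at the level in both libraries and 6 of 7 at the level in the wild type only were called lower, against 6.17% and 73.4%. With a minimum of 20 CPM, 7 of 20 members were called lower in mP, against 9.19% of all genes, and 10 of 22 in lP, against 12.8%. The ratios of 4933425L06Rik and 4933404K13Rik in mP, at 29.2 against 14.5 CPM and 45.3 against 22.6 CPM, lay next to the 2-fold limit, and their intervals cross it. The 11 members called lower in mP were also called lower in lP, and the 4 called lower in lP alone were 4933405D12Rik, 4933429H19Rik, 4933431J24Rik and 4933438B17Rik. Both counts use the same 2 libraries.

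The share called lower is given next by stage of peak, without a test of the difference. In lP it was 2 of 8 members that peak in pachytene, 8 of 13 that peak in D or MI and 5 of 9 that peak in spermatids, where all genes of the same classes gave 9.33%, 29.2% and 19.9%. The RIKEN-1700 series gave 61 of 118 genes called lower and 5 higher in lP, and the RIKEN-4930 series 34 of 77 and 5. By type, 4 of 4 antisense members, 6 of 14 lincRNA members and 5 of 12 protein-coding members were called lower in lP. Over all genes of the rule at that level the shares were 33.1% of 178 antisense, 48.1% of 239 lincRNA and 13.5% of 6786 protein-coding genes, so the lincRNA members were near the share of their type.

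**Figure D4:**
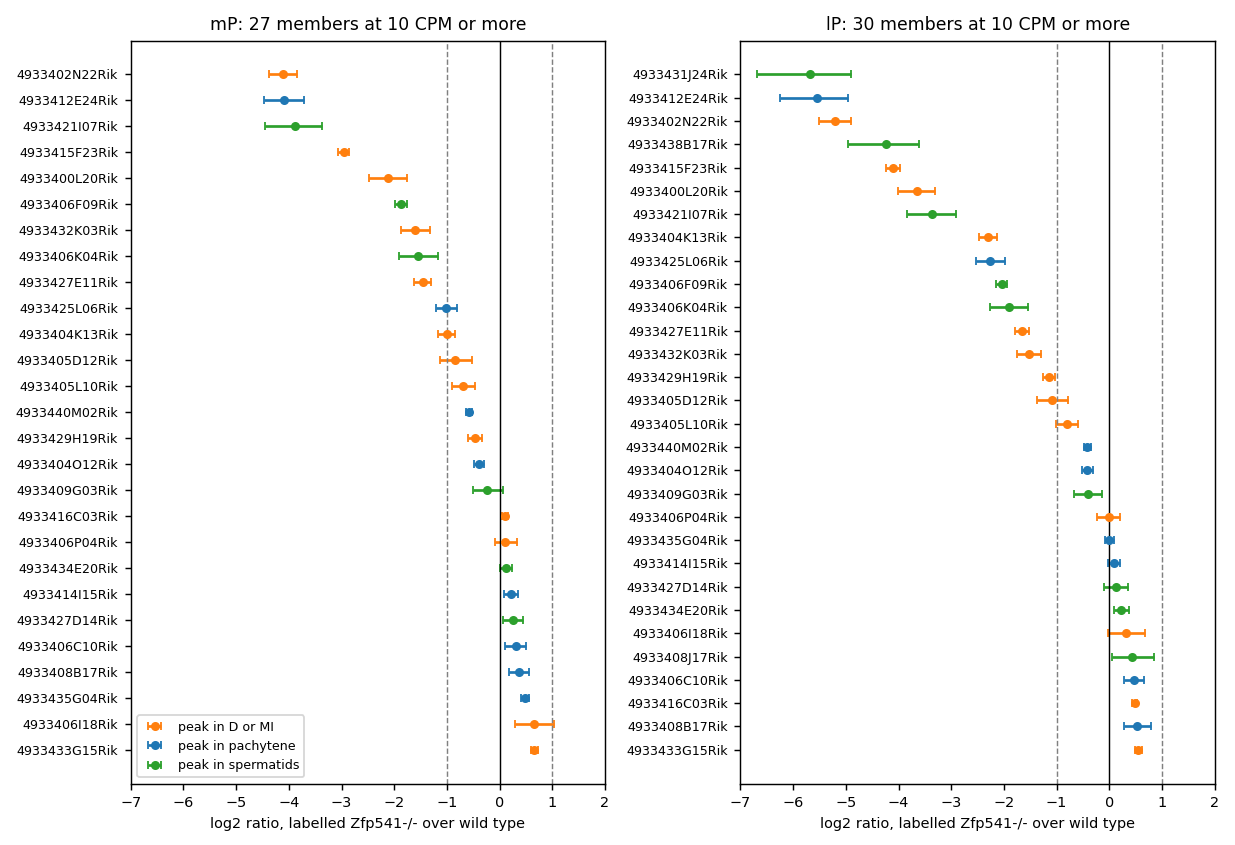
Log2 ratios, the Zfp541-/- label over the wild type, for the 27 members at 10 CPM or more in mP and the 30 in lP, with exact 95% conditional binomial intervals, coloured by class of wild-type peak. Dashed lines mark 2-fold differences. The points left of the lower dashed line are the 11 and 15 members called lower, and no point lies right of the upper one.

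Among the 30 members at the level in lP, the lowest ratios were in the following. 4933402N22Rik had 677 wild-type UMIs, or 84.8 CPM, and 108 UMIs, or 2.30 CPM, under the Zfp541-/- label, a log2 ratio of -5.20 (-5.51 to -4.91). In mP it read 54.4 and 3.14 CPM, a log2 ratio of -4.11 (-4.39 to -3.86). With every cell thinned to 3000 UMIs, at least 1 UMI of it was found in 22.4% of 825 wild-type lP cells (19.6 to 25.4) and 0.772% of 1944 cells of the other library (0.432 to 1.27). Before thinning the shares were 55.0% and 5.14%. As a background within that library, spermatogonia read 0 UMIs in 218 Diff.Spg1 cells, 4 UMIs in 415 Diff.Spg2 cells, or 1.19 CPM (0.33 to 3.06), and 1 UMI in 540 Diff.Spg3 cells. The interval of Diff.Spg2 holds the lP level of that library, 2.30 CPM (1.89 to 2.78). Those of Diff.Spg1, Diff.Spg3, Z and eP end below that lP interval, at 1.73, 1.86, 1.48 and 1.19 CPM. By counting error alone, the level left in lP was thus above these stages but was not told apart from Diff.Spg2.

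4933415F23Rik (Ppp1r14bl) read 228 CPM in wild-type lP and 13.2 CPM in the other library, from 1823 and 620 UMIs, a log2 ratio of -4.11 (-4.24 to -3.98). In mP it read 183 and 23.5 CPM, a log2 ratio of -2.96 (-3.07 to -2.85). Its thinned share of cells with a UMI was 47.5% against 3.96% in lP. The difference was thus seen in the level and in the share of cells.

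4933412E24Rik read 24.4 and 0.512 CPM in lP, from 195 and 24 UMIs, with a log2 ratio of -5.55 (-6.25 to -4.96), and -4.08 in mP. 4933431J24Rik read 14.8 and 0.277 CPM in lP, from 118 and 13 UMIs, a log2 ratio of -5.69 (-6.69 to -4.91). 4933438B17Rik, a lincRNA, read 10.7 and 0.555 CPM, a log2 ratio of -4.24 (-4.96 to -3.61), with wild-type levels just past the minimum. 4933400L20Rik read 26.6 and 2.11 CPM, a log2 ratio of -3.65 (-4.01 to -3.30). In mP it read 12.7 and 2.91 CPM, a log2 ratio of -2.12 (-2.48 to -1.76). These 4 peak in pachytene, in MI and, for 2 of them, in RS.3. In mP the third of the lowest ratios was that of 4933421I07Rik, a protein-coding member with 12.2 and 0.820 CPM and a log2 ratio of -3.89 (-4.46 to -3.37).

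Further members called lower kept a clear level in the library labelled Zfp541-/-. 4933406F09Rik read 162 and 39.4 CPM in lP, with a log2 ratio of -2.04 (-2.14 to -1.94), and 102 and 27.8 CPM in mP. 4933427E11Rik read 94.2 and 29.8 CPM in lP, a log2 ratio of -1.66, and 4933404K13Rik 62.8 and 12.7 CPM, a log2 ratio of -2.30. 4933429H19Rik read 107 and 48.6 CPM, with a log2 ratio of -1.14 (-1.26 to -1.03).

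The members with the highest ratios differed by less than 2-fold. 4933433G15Rik read 209.6 CPM in wild-type lP and 307 CPM in the other library, with a log2 ratio of 0.55 (0.48 to 0.62), and 0.66 in mP. 4933416C03Rik (Taf7l2) read 410.1 and 572 CPM in lP, with a log2 ratio of 0.48 (0.43 to 0.53), and 362 and 389 CPM in mP. It is a member highest in MI whose level was not lower there. 4933408B17Rik (Brd8dc) had a log2 ratio of 0.53 in lP and 0.36 in mP, 4933406C10Rik 0.46 and 0.30, and 4933406I18Rik 0.32 and 0.65. 4933408J17Rik had 0.43 in lP from 59 wild-type UMIs, and with thinned cells its ratio was -0.09 and that of 4933406I18Rik -0.05. In mP 4933435G04Rik had 0.48 and 4933427D14Rik 0.24.

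Among the 9 members highest in pachytene, the abundant ones were close between the libraries. In lP 4933435G04Rik read 164 CPM in each, with a log2 ratio of 0.00 (-0.08 to 0.09), and 4933414I15Rik 81.5 and 86.4 CPM, a log2 ratio of 0.08 (-0.03 to 0.21). These intervals leave room for differences of up to 0.09 and 0.21 on the log2 scale from counting error alone. 4933440M02Rik read 282 and 210.5 CPM, with a ratio on the log2 scale of -0.42 (-0.49 to -0.35), and 4933404O12Rik 122 and 91.3 CPM, also -0.42. 4933412E24Rik and 4933425L06Rik were the 2 of this class called lower.

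**Figure D5:**
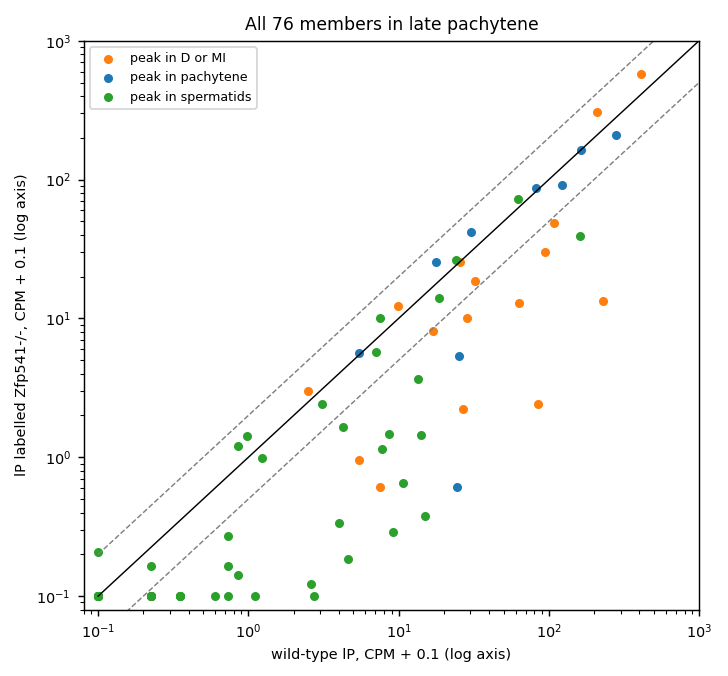
Levels of all 76 members in lP, wild type on the horizontal and the library labelled Zfp541-/- on the vertical axis, as CPM + 0.1 on log axes, coloured by class of wild-type peak. The solid line marks equal levels and the dashed lines 2-fold differences. Members that peak in pachytene lie between the dashed lines except 4933412E24Rik and 4933425L06Rik.

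The course from eP to lP within each library separates 3 patterns among these transcripts. 4933414I15Rik and 4933435G04Rik were higher in lP than in eP in both: 4.45 to 81.5 CPM in the wild type and 6.99 to 86.4 CPM in the other library for the first, and 47.8 to 164 and 40.9 to 164 CPM for the second. 4933415F23Rik and 4933402N22Rik were higher in wild-type lP than in eP, at 74.5 to 228 CPM and 2.22 to 84.8 CPM, the 2.22 CPM from 2 UMIs. In the library labelled Zfp541-/- they went from 11.8 to 13.2 CPM and from 0.466 to 2.30 CPM. Their mP levels in that library, given above, were higher than at either end and below those of wild-type mP. 4933412E24Rik and 4933425L06Rik were lower in lP than in eP of the library labelled Zfp541-/-, at 5.24 to 0.512 CPM and 44.0 to 5.27 CPM. In the wild type these last 2 went from 3.34 to 24.4 CPM and from 40.0 to 25.3 CPM.

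Late pachytene is made of clusters 0, 5 and 22 of the authors' cell table, which the libraries hold in different shares: 486, 107 and 234 wild-type cells and 959, 884 and 102 cells of the library labelled Zfp541-/-. At least 2-fold lower levels were found for 15.2%, 15.7% and 15.2% of all genes in these clusters. Of the 15 members called lower in lP, 13 were at least 2-fold lower in each of the 3 clusters. The exceptions were 4933429H19Rik with a log2 ratio of -0.96 in cluster 22 and 4933405D12Rik with -0.78 in cluster 0. For 4933402N22Rik the ratios were -5.09, -5.11 and -4.82 in clusters 0, 5 and 22, and for 4933415F23Rik -4.18, -3.86 and -3.97. In mP clusters 2, 4, 7 and 11 the shares of all genes were 11.7%, 8.47%, 12.8% and 10.6%, and 12.3%, 8.92%, 13.4% and 11.1% over genes of the wild-type rule. There 8 of the 11 were at least 2-fold lower in each of the 4 clusters, and the other 3 fell short in cluster 4: 4933425L06Rik at 0.05, 4933404K13Rik at -0.39 and 4933432K03Rik at -0.64. 4933404K13Rik also fell short in cluster 11, at -0.76. The clusters are parts of the stage sums that made these calls, so the counts over clusters are a description and no separate check. The shares of all genes are for single clusters and are not limited to genes already called lower in the stage.

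In eP as a whole 19 members were at the level, with 6 called lower (7.92% of all genes, 8.53% of those of the wild-type rule) and 1 higher (16.2% and 11.5%). Apart from 4933415F23Rik, those called lower had 10 to 16 wild-type UMIs in eP. Among them was 4933411K16Rik, highest in ES, with 11 UMIs in the wild type and 0 in the other library. The libraries mix the 2 clusters of eP differently, so the clusters are also given apart. In cluster 12, with 75 wild-type cells, 15 members were at the level, of which 3 were called lower (8.77% of all genes, 8.33% of those of the wild-type rule) and 1 higher (14.4% and 11.1%). In cluster 16, with 155 wild-type cells, 19 were at the level, of which 7 were called lower (8.7% and 9.28%) and 3 higher (20.4% and 16%). 4933415F23Rik was lower in both, with 50.3 and 10.9 CPM in cluster 12 and a log2 ratio of -2.23 (-3.05 to -1.27), and 86.5 and 12.8 CPM in cluster 16, where the log2 ratio was -2.75 (-3.35 to -2.16). 4933427E11Rik was also called lower in both, from 5 and 9 wild-type UMIs, and in cluster 16 the interval of its ratio reached 0.27. 4933406I18Rik was higher in cluster 16, with 6.66 and 30.8 CPM and a log2 ratio of 2.05 (0.81 to 4.11), from 4 wild-type UMIs.

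Most members that peak in spermatids were low in pachytene. The same counts over all genes that peak in spermatids are not given, so the following describes the members and is not read as particular to the series. In lP 12 of 51 had 0 UMIs in the wild type and 25 of 51 in the other library. At the same stage 30 of 51 were below 1 CPM in the wild type and 37 of 51 in the library labelled Zfp541-/-. Over eP, mP and lP together, 23 of the 51 had 0 UMIs in the library labelled Zfp541-/-, and 0 of 16 members that peak in D or MI and 0 of 9 that peak in pachytene did. By the rule, these 9 were at 10 CPM or more in wild-type pachytene. A count of 0 allows up to 3 counts in its stage and library. The wild-type level of 4933411K16Rik, from 34 UMIs in mP and 21 in lP, was 56.9-fold above that floor in mP and 41.1-fold in lP. In mP that of 4933402J07Rik was 38.5-fold above it, from 23 UMIs, and that of 4933417A18Rik 16.7-fold, from 10. These folds leave out the counting error of the small wild-type counts, so they are not lower limits of the differences. The elongating spermatid markers, given above, were also lower in the same cells, and their part in these differences was not tested.

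In the stages before pachytene, 11 of 76 members reached 10 CPM in the library labelled Zfp541-/-. The same count over all genes is not given, so this is not read as particular to the series. The wild type had 8 to 39 cells in each of these stages, in which 1 UMI alone exceeds that level, and is not counted. 4933416C03Rik read 272 CPM in Z and 318 CPM in eP of that library. 4933440M02Rik read 15.7 CPM in Z, 143 in eP and 217 in mP there. The 9 members highest in pachytene summed to 33.4 CPM in Diff.Spg1, 51.7 in pre.L, 109 in Z, 384 in eP and 672 CPM in mP of the library labelled Zfp541-/-.

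12 of 76 members (15.8%) have a gene on the other strand whose start lies within 1000 bases of their own, a head-to-head pair, against 15.0% of all genes of the rule. In 1 of these 12 pairs, 4933402N03Rik with 1700029B22Rik, whose starts lie 125 bases apart, both genes peaked in the same stage, ES, at 77.7 and 363 CPM. 4933433G15Rik starts 179 bases from Mapk6, a kinase gene, and in lP the log2 ratios were 0.55 for 4933433G15Rik and -0.94 for Mapk6. 4933405D12Rik starts 87 bases from 1810037I17Rik, with log2 ratios of -1.08 and -0.11 in lP. 4933406F09Rik and Gm10339, 85 bases apart, had -2.04 and -1.96, and Gm10339 was at 2.38 and 0.619 CPM.

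The exons of 17 members overlap exons of a gene on the other strand. 51.2% of the exonic bases of 4933429H19Rik overlap Sec62, which read up to 251 CPM, 35.9% of those of 4933428P19Rik overlap Kif1bp, and 28.8% of those of 4933416C03Rik overlap Ptprr, which stayed at or below 8.36 CPM. The kit keeps strand, but no source used here says whether the authors' counting used it, so the levels of these members may hold reads of the other gene. In wild-type eP, where Sec62 was highest, 4933429H19Rik read 7.78 CPM, from 7 UMIs. The part of reads from the other gene was not tested. 3 members, 4933411K16Rik, 4933417D19Rik and 4933425B07Rik, overlap exons of another gene on the same strand. 4933411K16Rik shares 43 bases with Hoga1, which read up to 1.72 CPM.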

How the data were processed

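The submitters' processing notes name Cell Ranger 3.1.0, Seurat 3.2.0 and the mm10 build. The deposited matrices hold whole-number UMI counts per gene and barcode. The authors' cell table, per the file headers, gives each cell's count total, percent mitochondrial UMIs, cluster and stage. Counts were summed per stage and library. Ratios were taken where each library had at least 50 cells. Intervals are exact Poisson for sums, Clopper-Pearson for shares and conditional binomial for ratios. Only those of ratios were tested on simulated data, drawn as Poisson counts around the stage sums. That model is the one the intervals assume, so the simulation says nothing about spread between cells or libraries. With 1 library per genotype no test was made. Annotation was GENCODE vM21 (GRCm38). A merged matrix was not used. No doublet caller was run, and the authors' annotated cells were used as they stand.

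The members and lists were chosen with earlier results of these data known. Named members are the 4 highest per peak stage, the 6 lowest and 6 highest ratios in mP and lP, and those nearest the limit; other names illustrate a count. Alternatives were other minimums, a mitochondrial limit of 5%, thinning to 3000 UMIs per cell, equal weight of cells or clusters, median-of-ratios scaling and 0.1 added counts. Python 3.11.15, numpy 2.4.6, pandas 2.3.3 and scipy 1.17.1 were used.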

Additional observations from a re-analysis of the deposited data

How the results depend on the processing

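The counts per class of peak and the number of members stayed within 1.5 times of the values given under every alternative run, with 93 members at a minimum of 5 CPM and 64 at 20 CPM. Members called lower in mP went from 11 to 7 at 20 CPM. The median log2 ratio moved with the minimum, which sets the members counted: in mP from -0.58 to -0.64 at 5 CPM, -0.43 at 20 CPM and -0.43 with the minimum on the mean of the libraries, and in lP from -0.95 to -1.14, -0.62 and -0.42. No alternative gave a member called higher in mP or lP, and no called value changed sign; the ratios of 4933406I18Rik and 4933408J17Rik in lP, both under 2-fold, changed sign in thinned cells. Whether or not they reached the minimum of a setting, 9 of the 11 members called lower in mP kept a ratio at least 2-fold lower under every setting run (not 4933425L06Rik and 4933404K13Rik), and 13 of the 15 in lP (not 4933429H19Rik and 4933405D12Rik). The class of peak was kept by 72 to 76 of 76 members. Thinning left out 88 of 230 wild-type eP cells. No paired analysis was possible because each genotype had 1 library. Depth limits what can be said of spermatid members in pachytene and of wild-type stages before eP.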

Other observations

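Of the 45 symbols of the series below the limit, 0 reached 10 CPM in pachytene of either library, and 2 had 0 UMIs in both. 2 of the 45 were at 10 CPM or more before pachytene in the library labelled Zfp541-/-. The same counts over all genes below the limit are not given. The lincRNA 4933427D06Rik read 99.6 CPM in pre.L, from 181 UMIs, and at most 0.159 CPM in the 9 wild-type stages of the rule. The antisense RNA 4933431E20Rik read 15.5 CPM in Diff.Spg2, from 52 UMIs.

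Barcodes of the matrices that are not in the authors' cell table were used in no comparison. In the wild-type library 4219 such barcodes held 22882657 UMIs, and the 51 spermatid members summed to 1601 CPM (1584 to 1617) and the elongating spermatid markers to 26271 CPM in them. In the library labelled Zfp541-/-, 2747 such barcodes gave 142 CPM (134 to 149) and 1.98 CPM.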
